A study of Mus musculus with 6 samples.

Results

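Macrophage and myeloid identity genes were followed across the aortic arches of mice with and without an endothelial deletion of Rbpj. They are 32 genes, fixed by name, that mark macrophages or the wider myeloid lineage, and all 32 were among the 14298 genes in the deposited table. By role, 6 mark leukocytes in general, 4 are a myeloid transcription factor, kinases or an adaptor, 11 mark macrophages broadly, 6 mark tissue-resident macrophages (Lyve1, Folr2, Cd163, F13a1, Pf4 and Mrc1) and 5 mark lipid-laden or lesion macrophages (Trem2, Gpnmb, Lgals3, Cd9 and Clec7a). The 3 knockout libraries came from ApoE-/-;RBPJflox/flox mice carrying Cdh5-CreERT, a recombinase that tamoxifen switches on in endothelial cells. The 3 control libraries came from ApoE-/-;RBPJflox/flox mice without that recombinase, so both groups lack apolipoprotein E and carry floxed alleles of Rbpj, the DNA-binding partner of Notch receptors. All were adult C57/BL6 mice that received tamoxifen for 1 week at 8 weeks of age and then a high-fat diet for 6 weeks. Because the control animals had no recombinase, its presence and the deletion cannot be told apart. The RNA was that of the whole arch and not of sorted cells, while the Cdh5 promoter drives the recombinase in endothelial cells.

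Arterial macrophages come from resident cells of the outer wall, many of them seeded before birth, and from blood monocytes that enter the inner wall when lipid accumulates there. Resident cells of the outer wall typically carry the hyaluronan receptor LYVE1, the folate receptor FOLR2 and the mannose receptor CD206. Macrophages that take up cholesterol in plaques carry TREM2, GPNMB and galectin-3. PU.1, the product of Spi1, is the transcription factor that all myeloid cells need, and CD45, CD53 and coronin-1A are shared with lymphocytes.

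Depth over the genes in the table was 6181341 to 10072495 reads in the knockout libraries and 5904504 to 7855001 in the control libraries. Levels are normalised CPM, in which 0.5 was added to the reads and the library size was scaled, and were not corrected for gene length. Smooth muscle markers were abundant: Acta2, the smooth muscle actin gene, read 8399.7 to 12360.4 normalised CPM in the knockout and 5021 to 8580.4 in the control libraries. Rbpj itself read 169, 197 and 212 in knockout S595, S598 and S599 and 174, 191 and 200.4 in control S591, S592 and S594 (limma log2 fold change 0.03 ± 0.12 SE, Benjamini-Hochberg adjusted p = 0.923). Whole-arch RNA does not check a deletion limited to the endothelium. Cdh5, the gene of the endothelial VE-cadherin, read 109, 111 and 198 in the knockout and 123, 126 and 146 in the control libraries. Knockout libraries S598 and S599 stood apart in T cell transcripts: 12 T cell genes summed to 34.4, 258 and 109 in knockout S595, S598 and S599, against 38.1 to 49.9 in the control libraries. The sum does not tell immature from mature T cells. Several results are therefore also given with S595 as the 1 knockout library.

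Most of the macrophage genes stood lower in the knockout arches, with a median difference that corresponds to 0.497 of the control level, while the resident-type genes varied from no difference to a moderate one. Over the 32 genes the median log2 fold change (knockout over control, fitted to log2(value + 1)) was −1.01, against −0.02 over all genes. With S595 as the 1 knockout library it was −1.07, and 20 of the 32 were lower at an unadjusted p of 0.05, beside 6.33% of all genes in that fit. The difference was negative for 30 of the 32, and Cd163 and Cd9 were the 2 above 0, by 0.03 each. In limma 0 of the 32 passed an adjusted p of 0.05 over all 14298 genes, where 0% of all genes passed as lower and 0.0210% as higher. At an unadjusted p of 0.05 limma counted 24 lower and 0 higher, beside 12.0% of all genes lower and 8.04% higher. For 19 genes every knockout library lay below every control library, and for 0 above, where 14.2% of all genes lay apart as lower and 11.3% as higher. The smallest adjusted p among them was 0.107, for Coro1a. In whole tissue, fewer cells of a type and less RNA per cell cannot be told apart.

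**Figure D1:**
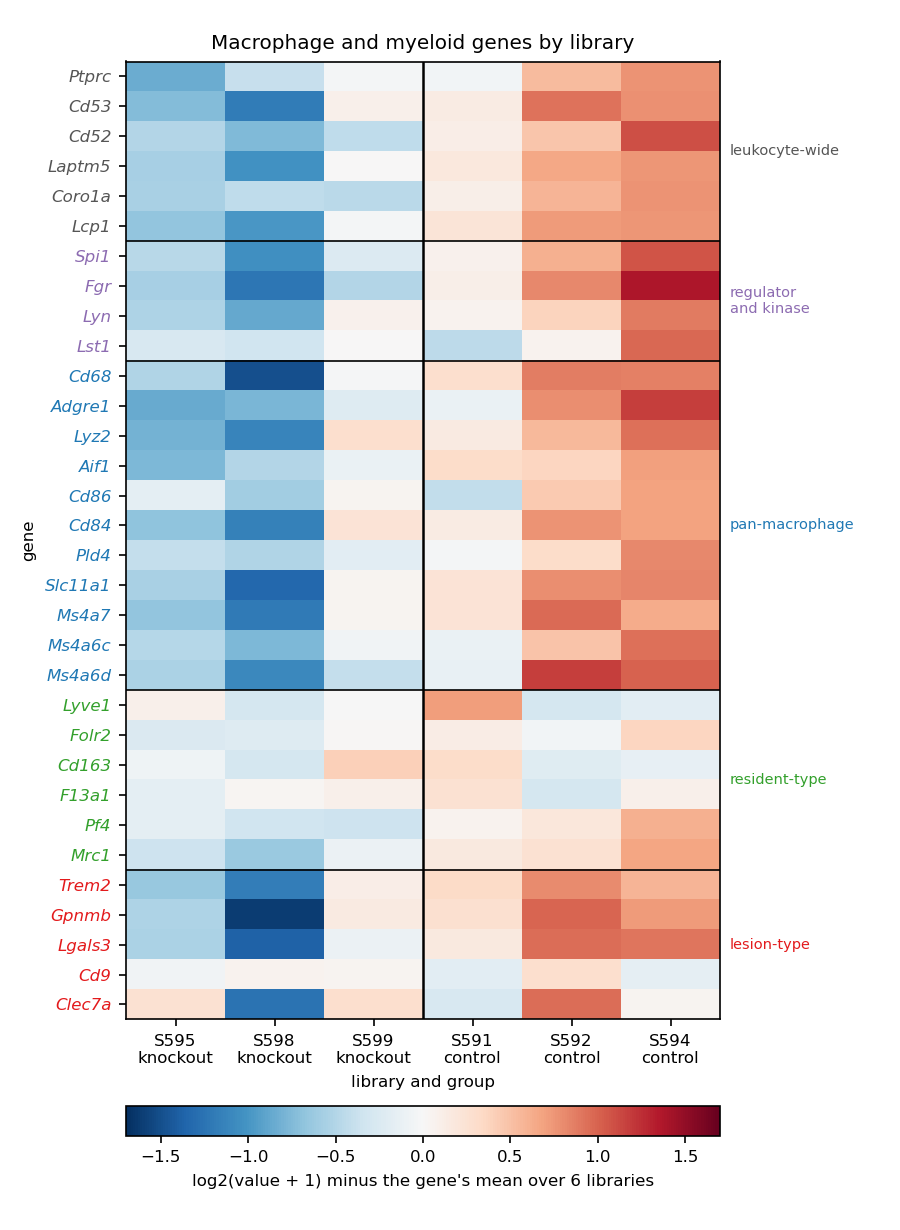
Heat map of the 32 genes (rows, grouped by role) in the 6 libraries (columns, knockout left of control). Colour is log2(value + 1) minus the gene's mean over the 6 libraries. Blue fills most of knockout S595 and S598 and red most of control S592 and S594, knockout S599 and control S591 lie between them, and the resident-type rows are pale.

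The libraries took much the same order in most of these genes. Knockout S598 was the lowest of the knockout libraries for 24 of the 32 genes and S599 the highest for 28. Among the controls S591 was the lowest for 28 and S594 the highest for 19. Averaged over the 32 genes, the log2 level relative to the mean of all libraries was −0.46, −0.81 and −0.04 in knockout S595, S598 and S599, beside 0.09 in control S591, 0.53 in S592 and 0.69 in S594. The groups thus met at knockout S599 and control S591, and S599 was above S591 for 10 of the 32 genes. Their summed signal was 5923, 4272 and 9850.3 normalised CPM in knockout S595, S598 and S599, and 10009.2, 14479 and 15282 in control S591, S592 and S594.

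The leukocyte-wide genes were all lower at an unadjusted p of 0.05 in limma, with a median log2 fold change of −1.09. Ptprc (ENSMUSG00000026395) encodes CD45, the tyrosine phosphatase found on all nucleated blood cells. It read 62.0, 85.0 and 109.5 normalised CPM in knockout S595, S598 and S599, and 109, 164 and 191 in control S591, S592 and S594. Knockout S599 just passed control S591, so the groups overlapped, and the log2 fold change was −0.84 (95% interval −1.44 to −0.25, limma adjusted p = 0.146). It was −1.26 with S595 as the 1 knockout library and −0.63 without S595. Coro1a (ENSMUSG00000030707), which encodes the actin-binding coronin-1A of leukocytes, read 44.7, 48.6 and 47.6 in the knockout and 70.8, 98.6 and 113 in the control libraries. The knockout libraries were close together and all below the controls (log2 fold change −0.96, limma adjusted p = 0.107). Cd52, the gene of a small glycoprotein anchored on leukocytes, averaged 15.2 ± 1.82 in knockout and 35.4 ± 13 in control arches (SD, n = 3 each). The tetraspanin gene Cd53, the lysosomal membrane protein gene Laptm5 and Lcp1, which encodes the actin bundler L-plastin, were also fully apart, with log2 fold changes of −1.23, −1.06 and −1.13. Cd53 read 118 in knockout S599 against 123 in control S591, the narrowest gap of these.

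Spi1 (ENSMUSG00000002111), the gene of PU.1, read 23.1, 15.2 and 27.3 normalised CPM in knockout S595, S598 and S599, and 34.2, 49.6 and 69.2 in control S591, S592 and S594. All knockout values were below all control values, with means of 21.8 ± 6.14 in knockout and 51.0 ± 17.5 in control arches (SD, n = 3 each). The log2 fold change was −1.17 (95% interval −1.84 to −0.50, limma adjusted p = 0.121), and the exact two-sided permutation p was 0.1, the smallest that 3 against 3 libraries allow. Fgr (ENSMUSG00000028874), a Src-family kinase gene of myeloid cells, read 20.01, 12.3 and 21 in the knockout and 32.2, 53.6 and 79.3 in the control libraries. Its log2 fold change of −1.52 was the most negative of the 32 (limma adjusted p = 0.11). The related kinase gene Lyn stood at −0.87 with the groups overlapping, knockout S599 at 60.2 and control S591 at 59.3. Lyn shared 15.9% of its 50-base transcript windows with the transcript named Gm11787, so part of its signal is uncertain. Lst1, a leukocyte adaptor gene, was the lowest in reads, at 26, 39 and 32 reads in knockout S595, S598 and S599 and 19, 39 and 88 in control S591, S592 and S594. Its control libraries spanned its knockout values (log2 fold change −0.40, 95% interval −1.21 to 0.42, limma adjusted p = 0.574).

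Since the PU.1 gene is one of the members, the promoters of the others were searched for the letters AGGAAGT, a core of PU.1 sites, on both strands. RefSeq's table (build GRCm38.p6, which differs from the build in the processing notes) had 31 promoters for 24 of the 32 genes, each running from 250 bases before to 50 after the transcript start. The letters were present in 10 of the 31 (32.3%), from 9 genes, and in 9.35% of all 32851 promoters in the table. The shorter ETS-family core GGAAGT, which every match of the first also contains, was in 15 of the 31 (48.4%) and in 23.8% of all promoters. The RBPJ core TGGGAA was in 7 of the 31 (22.6%) and in 25.6% of all promoters. These are matches of letters and not sites. The promoters below are those of the 3 genes with the most AGGAAGT matches, 2 each, with the matches on either strand in capitals. F13a1 and Folr2 are resident-type and had overlapping groups, and Ptprc is leukocyte-wide. The F13a1 promoter is chr13:37049164-37049463 on the minus strand, with matches whose first base is at −36 and 15 from the start. The Folr2 promoter is chr7:101857141-101857440 on the minus strand, with matches at −137 and −82. The Ptprc promoter is chr1:138175256-138175555 on the minus strand, with matches at −113 and −58.
F13a1: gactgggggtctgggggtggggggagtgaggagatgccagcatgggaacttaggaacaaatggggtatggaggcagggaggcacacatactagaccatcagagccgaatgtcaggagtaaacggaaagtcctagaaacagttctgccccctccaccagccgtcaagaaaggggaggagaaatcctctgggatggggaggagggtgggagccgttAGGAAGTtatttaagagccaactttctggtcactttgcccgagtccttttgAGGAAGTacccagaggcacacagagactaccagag
Folr2: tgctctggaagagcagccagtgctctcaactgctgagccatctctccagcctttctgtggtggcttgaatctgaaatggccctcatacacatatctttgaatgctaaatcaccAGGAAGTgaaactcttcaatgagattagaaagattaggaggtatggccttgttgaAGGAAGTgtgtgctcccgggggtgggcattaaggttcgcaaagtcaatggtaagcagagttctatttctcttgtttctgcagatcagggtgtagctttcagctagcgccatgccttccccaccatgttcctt
Ptprc: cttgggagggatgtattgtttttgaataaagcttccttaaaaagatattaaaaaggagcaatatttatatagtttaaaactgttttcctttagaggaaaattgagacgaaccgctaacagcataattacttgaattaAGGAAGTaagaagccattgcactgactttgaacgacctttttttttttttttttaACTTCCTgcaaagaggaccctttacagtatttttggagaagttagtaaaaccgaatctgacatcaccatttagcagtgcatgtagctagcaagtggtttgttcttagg

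Of the 11 genes that mark macrophages broadly, 10 were lower at an unadjusted p of 0.05 in limma and 7 had the groups apart, with a median log2 fold change of −1.09. Cd68 (ENSMUSG00000018774), the gene of the lysosomal glycoprotein macrosialin, read 146, 73.1 and 206 normalised CPM in knockout S595, S598 and S599, and 255, 381 and 377 in control S591, S592 and S594. Every knockout library was below every control library. The means were 141 ± 66.4 in knockout and 337 ± 71.9 in control arches (SD, n = 3 each), a log2 fold change of −1.35 (95% interval −2.17 to −0.52, limma adjusted p = 0.123). Adgre1 (ENSMUSG00000004730), the gene of the F4/80 antigen, read 47.4, 50.4 and 74.3 in the knockout and 80.4, 151 and 198 in the control libraries. These groups were also apart, but control S591 lay much nearer the knockout libraries than the other controls (log2 fold change −1.24, limma adjusted p = 0.122). Aif1, which encodes the calcium-binding protein IBA1, read 8.14, 9.98 and 13.4 in the knockout and 18.4, 19.1 and 24.2 in the control libraries (log2 fold change −0.92, limma adjusted p = 0.111).

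Slc11a1, the gene of the phagosomal metal transporter NRAMP1, averaged 46.7 ± 21.7 in knockout and 105 ± 22.8 in control arches (SD, n = 3 each, log2 fold change −1.23). Pld4, which encodes an endolysosomal exonuclease, averaged 35 ± 4.30 in knockout and 60.3 ± 18.6 in control arches (SD, n = 3 each, log2 fold change −0.73). Both had the groups apart. Cd84, an adhesion receptor gene of the SLAM family, and Lyz2, the macrophage lysozyme gene, overlapped because knockout S599 passed control S591. Lyz2 read 1942, 1559 and 4120.0 in the knockout and 3765, 4981 and 6469.9 in the control libraries (log2 fold change −1.09, 95% interval −2.05 to −0.14). It shared 15.4% of its 50-base transcript windows with its copy Lyz1, so its reads are uncertain. Cd86, a costimulatory ligand gene, was the 1 of the 11 above an unadjusted p of 0.05, at 9.97, 7.18 and 11.7 in the knockout and 8.26, 15.8 and 18.8 in the control libraries (log2 fold change −0.48, limma adjusted p = 0.427).

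The 3 genes of the MS4A family of membrane-spanning proteins stood lower to different degrees. Ms4a6d (ENSMUSG00000024679) read 32.9, 22.0 and 36.3 normalised CPM in knockout S595, S598 and S599, and 44.2, 109.9 and 97.7 in control S591, S592 and S594 (log2 fold change −1.36, limma adjusted p = 0.121). Ms4a7 read 36.7, 25.1 and 60.8 in the knockout and 69.7, 115 and 91.7 in the control libraries (log2 fold change −1.22, limma adjusted p = 0.121). Both had the groups apart. Ms4a6c read 24.4, 20.1 and 33.3 in the knockout and 31.9, 49.2 and 67.1 in the control libraries, with knockout S599 above control S591 (log2 fold change −0.87, limma adjusted p = 0.159). Ms4a6c is uncertain, since 11.3% of its windows occurred in another transcript on the same strand, Ms4a6b first, and 55.4% lay opposite another transcript, and whether counting used strand is not given in the sources used here.

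**Figure D2:**
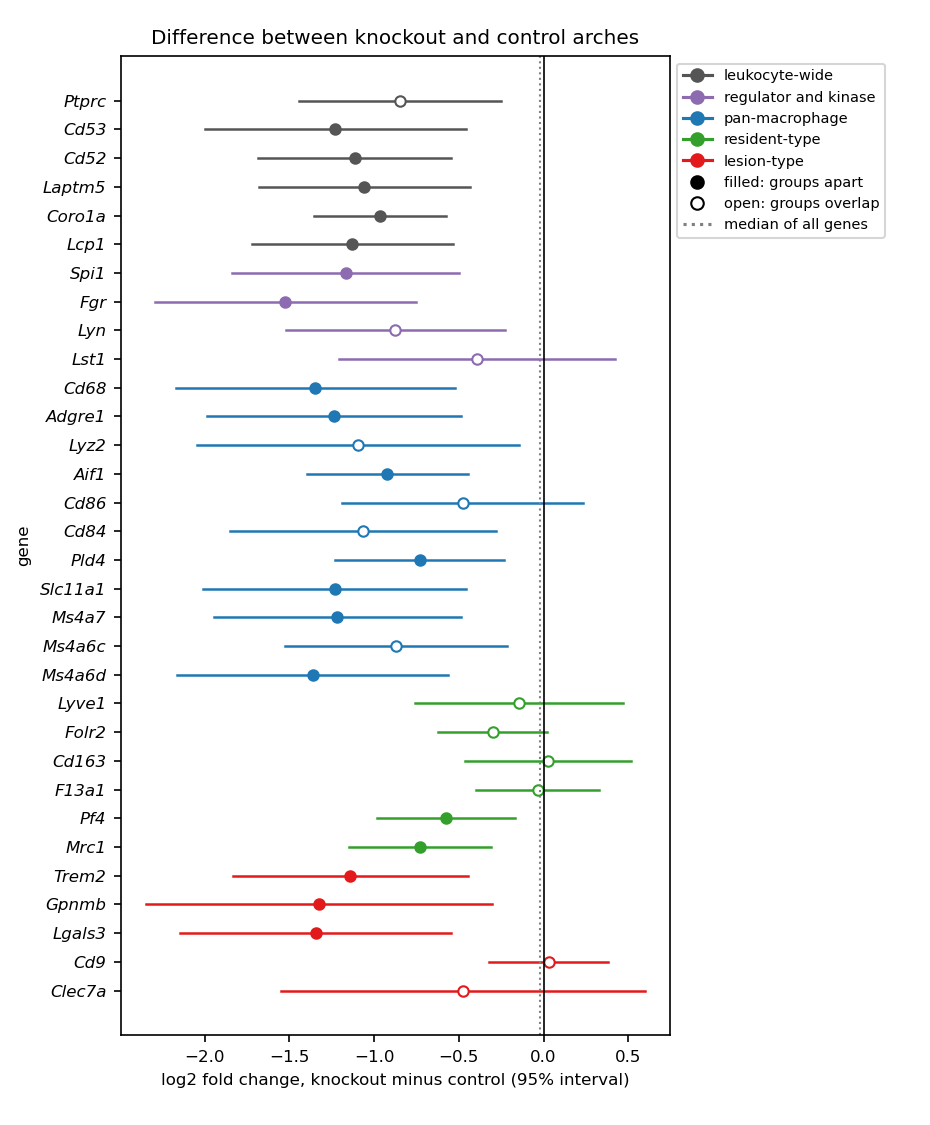
Log2 fold changes, knockout minus control, of the 32 genes with 95% intervals from limma, coloured by role. Filled points mark the 19 genes with the groups apart, and the dotted line is the median of all genes at −0.02. Leukocyte-wide and pan-macrophage genes lie between −1.36 and −0.48, and 4 of the 6 resident-type genes have intervals that cross 0.

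Of the 5 lesion-type genes, Trem2, Gpnmb and Lgals3 had every knockout library below every control library, and Cd9 and Clec7a did not. Trem2 (ENSMUSG00000023992), the gene of a lipid-sensing receptor, read 61.9, 42.8 and 105 normalised CPM in knockout S595, S598 and S599, and 123, 171 and 145 in control S591, S592 and S594. Its means were 69.9 ± 31.9 in knockout and 146 ± 24.2 in control arches (SD, n = 3 each), a log2 fold change of −1.14 (95% interval −1.83 to −0.45, limma adjusted p = 0.122). Gpnmb (ENSMUSG00000029816), which encodes a membrane glycoprotein of lipid-laden macrophages, read 1562, 735 and 2497 in the knockout and 2714, 4485 and 3702 in the control libraries. The groups were apart, but the knockout libraries were widely spread (log2 fold change −1.32, limma adjusted p = 0.164). Lgals3 (ENSMUSG00000050335), the galectin-3 gene, read 263, 146 and 358 in the knockout and 428, 737 and 721 in the control libraries, all apart (log2 fold change −1.34, limma adjusted p = 0.121).

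Cd9 (ENSMUSG00000030342), a tetraspanin gene used for lesion macrophages and also expressed by smooth muscle, endothelium and platelets, read 437, 474 and 472 in the knockout and 402, 558 and 409 in the control libraries. The knockout values lay within the control range (log2 fold change 0.03, 95% interval −0.32 to 0.38, limma adjusted p = 0.93). Of its 50-base windows, 14.3% lay opposite another transcript. Clec7a (ENSMUSG00000079293), the gene of the beta-glucan receptor dectin-1, read 101, 34.7 and 102 in the knockout and 69.0, 163 and 86.5 in the control libraries. Single libraries, knockout S598 and control S592, were the lowest and highest, and the other 2 knockout libraries lay above the other 2 control libraries (log2 fold change −0.48, 95% interval −1.55 to 0.60, limma adjusted p = 0.61). Without knockout S598 its log2 fold change was 0.031. The lesion-type median was −1.14 over all 6 libraries and −1.19 with S595 as the 1 knockout library, and it ran from −1.48 (without knockout S599) to −0.84 (without knockout S598).

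The 6 resident-type genes had a median log2 fold change of −0.22, with Mrc1 and Pf4 apart and the other 4 overlapping. Lyve1 (ENSMUSG00000030787), a hyaluronan receptor gene of resident macrophages and lymphatic endothelium, read 33.9, 25.6 and 31.7 normalised CPM in knockout S595, S598 and S599, and 52.5, 25.6 and 27.9 in control S591, S592 and S594. Control S591 alone stood high, and the log2 fold change of −0.15 (95% interval −0.76 to 0.47, limma adjusted p = 0.796) became 0.17 without it. Folr2 (ENSMUSG00000032725), the folate receptor beta gene, read 32.6, 33.4 and 39.4 in the knockout and 42.7, 37.8 and 50.5 in the control libraries. The overlap came from knockout S599 and control S592 alone (log2 fold change −0.30, 95% interval −0.62 to 0.02, limma adjusted p = 0.28). Of the Folr2 windows, 56.7% lay opposite the transcript named Gm10602, which is also in the table, so its reads are uncertain.

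Cd163 (ENSMUSG00000008845), the haemoglobin scavenger receptor gene, read 45.6, 38.8 and 63.9 in the knockout and 59.6, 41.2 and 43.4 in the control libraries. F13a1 (ENSMUSG00000039109), which encodes the A subunit of coagulation factor XIII, read 144, 165 and 173 in the knockout and 194, 132 and 173 in the control libraries. For both the groups were intermixed, and the 95% intervals of the log2 fold changes ran from −0.46 to 0.52 for Cd163 and from −0.40 to 0.33 for F13a1 (limma adjusted p = 0.954 and 0.924). These intervals did not reach the Cd68 estimate of −1.35, but its own 95% interval ran from −2.17 to −0.52. The difference of either gene from Cd68 was not tested. Mrc1 (ENSMUSG00000026712), the gene of the mannose receptor CD206, read 148, 122 and 176 in the knockout and 213, 226 and 302 in the control libraries, all apart (log2 fold change −0.73, 95% interval −1.14 to −0.31, limma adjusted p = 0.121). Pf4 (ENSMUSG00000029373), a chemokine gene of platelets and resident macrophages, read 13.3, 11.7 and 11.6 in the knockout and 15.7, 17.4 and 23.5 in the control libraries, also apart (log2 fold change −0.57, limma adjusted p = 0.148). The resident-type median was −0.29 with S595 as the 1 knockout library, −0.11 without control S591 and −0.37 without control S592.

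**Figure D3:**
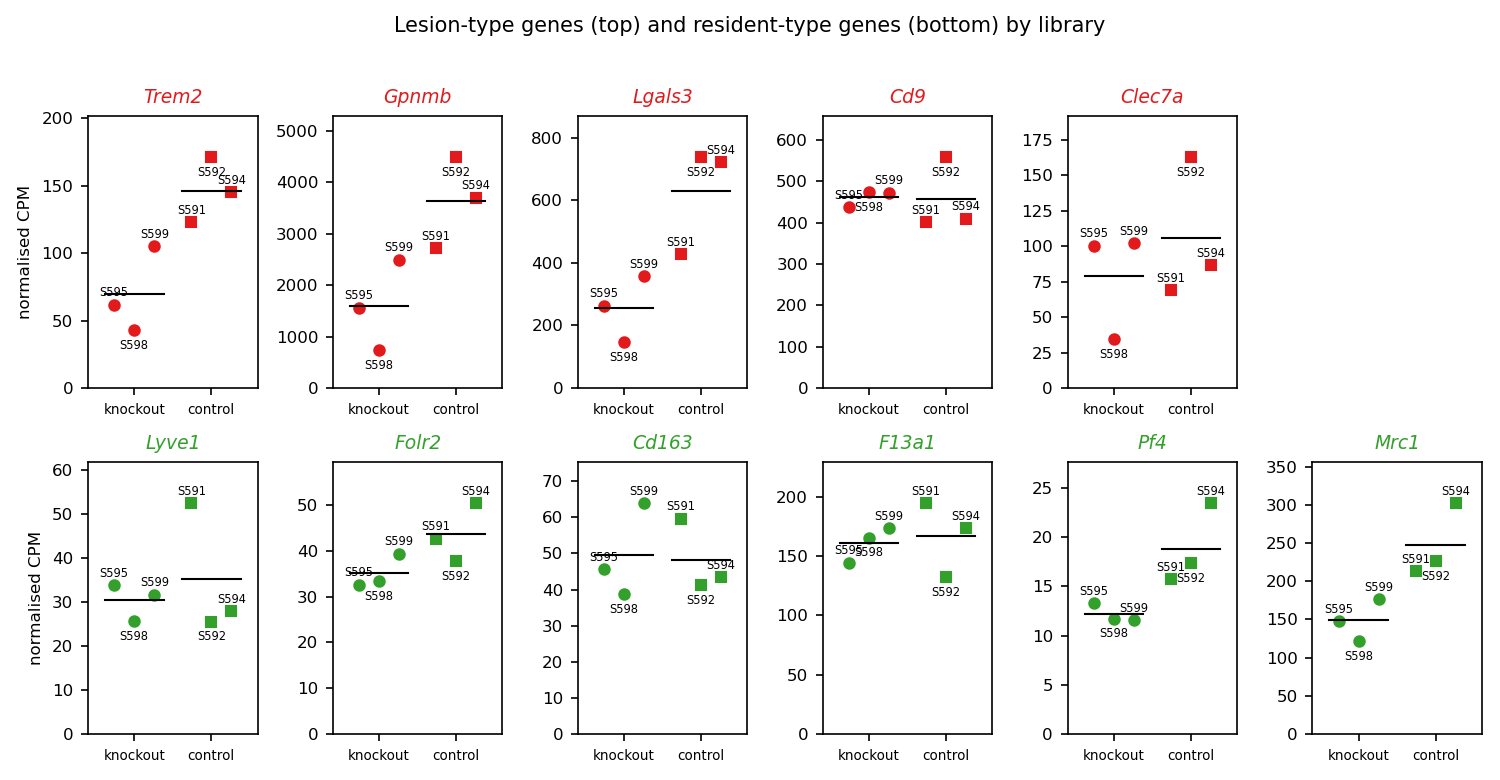
Normalised CPM of the 5 lesion-type genes (top) and the 6 resident-type genes (bottom), with knockout libraries (circles) left of control libraries (squares), each marked by its library number, and bars at group means. Axes start at 0. Trem2, Gpnmb, Lgals3, Pf4 and Mrc1 have no overlap between groups, and Cd163, F13a1, Lyve1 and Cd9 lie at similar heights in both.

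To set the 2 classes side by side, the mean log2(value + 1) of the resident-type genes was taken from that of the lesion-type genes in each library. The difference was 2.35, 1.72 and 2.59 in knockout S595, S598 and S599, and 2.29, 3.37 and 2.68 in control S591, S592 and S594. The groups overlapped, with means of 2.22 ± 0.45 in knockout and 2.78 ± 0.54 in control arches (SD, n = 3 each). The difference between the classes was not tested, since both were named with earlier results of these data known.

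Taking each gene relative to Cd68 in the same library removes only what rises and falls in proportion to that marker. It also adds the Cd68 difference, with its sign reversed, to genes that do not follow Cd68. Gpnmb minus Cd68 was 3.41, 3.31 and 3.60 on the log2 scale in knockout S595, S598 and S599, and 3.41, 3.55 and 3.29 in control S591, S592 and S594. Lgals3 relative to Cd68 averaged 0.88 ± 0.10 in knockout and 0.88 ± 0.11 in control arches, and Trem2 averaged −0.98 ± 0.23 in knockout and −1.19 ± 0.17 in control arches (SD, n = 3 each). For these 3 lesion genes the groups overlapped relative to Cd68, as they did for Slc11a1 and Ms4a7, at mean differences of 0.11 and 0.13. The lesion-type genes Cd9 and Clec7a were instead apart and higher in the knockout libraries, by 1.38 and 0.87 on average. Cd163 relative to Cd68 was −1.65, −0.90 and −1.67 in the knockout and −2.08, −3.18 and −3.09 in the control libraries. Every knockout value was higher than every control value, by 1.37 on average. F13a1 relative to Cd68 was likewise apart, by 1.31, as were Folr2 by 1.05 and Mrc1 by 0.62. Lyve1 and Pf4 overlapped, at mean differences of 1.2 and 0.77.

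In all, 8 of the 31 other genes were higher relative to Cd68 with the groups apart (Laptm5, Cd86, Folr2, Cd163, F13a1, Mrc1, Cd9 and Clec7a) and 0 were lower. Cd68 itself had a log2 fold change of −1.35, so a gene with no difference between the groups would lie higher relative to it. The median over the 31 was 0.38. The share of all genes apart relative to Cd68 was not computed, so these counts have no background. The choice of denominator mattered. Relative to Ptprc, only Cd9 of the 31 was apart (0.88 higher in the knockout libraries), and Cd163 and F13a1 overlapped at mean differences of 0.87 and 0.81. Knockout S598, with the most T cell transcripts, had Ptprc minus Cd68 at 0.21, against −1.22 and −0.90 in knockout S595 and S599 and −1.22 to −0.98 in the controls. Coro1a minus Cd68 was −0.58 in S598, against −1.68 and −2.09 in S595 and S599 and −1.94 to −1.73 in the controls. Cd68 itself was lowest in S598, at 73.1 normalised CPM, so this was not particular to genes that lymphocytes share. Every other gene that marks macrophages broadly was also highest relative to Cd68 in S598, such as Aif1 at −2.76 and Pld4 at −1.20. The lesion-type genes Gpnmb and Clec7a were not. T cells express both Ptprc and Coro1a, and the part of T cell RNA in these values was not tested.

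**Figure D4:**
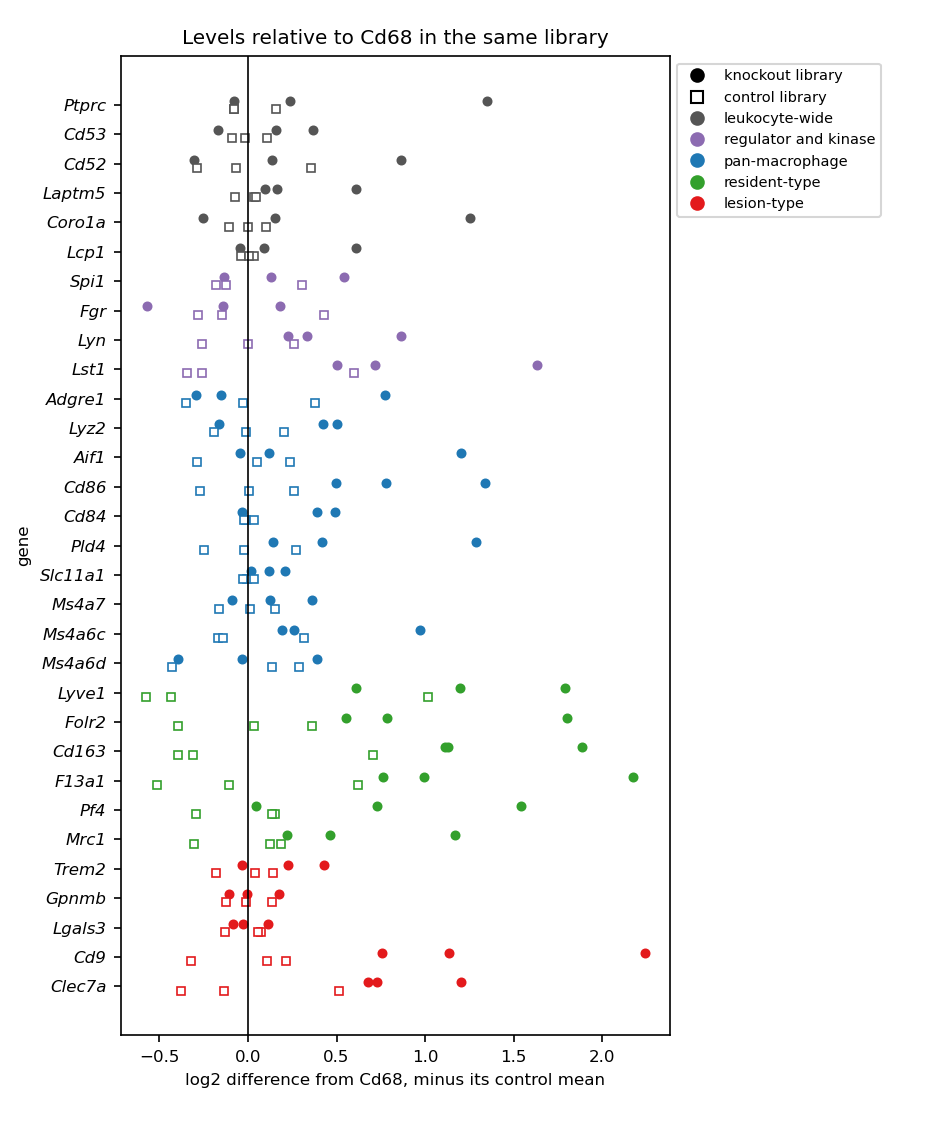
Log2 difference of each gene from Cd68 in the same library, shown relative to its control mean, with knockout libraries as filled circles and control libraries as open squares. Gpnmb, Lgals3 and Slc11a1 stay near the control mean in all 6 libraries, while the knockout circles of Cd163, F13a1, Folr2 and Cd9 lie to the right of the squares.

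Other macrophage genes, taken from lists of textbook markers, gave similar values. By limma's unadjusted p of 0.05, 16 of 18 further pan-macrophage genes were lower and 0 were higher, with a median log2 fold change of −0.98. Itgam, the CD11b gene, was at −1.57, the adaptor gene Tyrobp at −1.11 and the complement gene C1qa at −0.999, and 0 passed the adjusted threshold. Of 18 further lesion-macrophage genes, 16 were lower and 0 higher by the same measure, with a median of −1.04. Among these Mmp13, a collagenase gene, was at −2.55, Spp1, the osteopontin gene, at −2.24 with Fabp5, a fatty acid binding protein gene, at −1.22. Mmp13 had only 47, 28 and 16 reads in knockout S595, S598 and S599 and 75, 437 and 201 in control S591, S592 and S594. Spp1 varied widely among the controls, at 2593, 8243 and 6642 normalised CPM in that order. The limma adjusted p was 0.107 for both Mmp13 and Spp1. Of 13 further resident-macrophage genes, 5 were lower and 1 higher, with a median of −0.21. Wfdc17, a secreted whey acidic protein gene, was at −0.98, the sialoadhesin gene Siglec1 at −0.96 and the scavenger receptor gene Stab1 at −0.53. The 1 higher at that unadjusted p was the chemokine gene Ccl24, named after its values were seen, at 1.005. By sign alone, 7 of the 13 were below 0 and 6 above. Of 15 transcription and growth factor genes, 11 were lower and 0 higher, with a median of −0.67, among them the receptor genes Csf2ra at −1.23 and Csf2rb at −1.41.

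Of 8 monocyte genes, 1 was lower by the unadjusted p and 0 were higher. Their median log2 fold change was −0.55, or −0.34 with S595 as the 1 knockout library. The chemokine receptor gene Ccr2 read 29.1, 53.7 and 62.2 normalised CPM in knockout S595, S598 and S599, and 70.8, 62.6 and 104 in control S591, S592 and S594, apart by a narrow gap (log2 fold change −0.73, limma adjusted p = 0.228). Chil3, a chitinase-like protein gene, was at −1.19 with the groups overlapping. It had 31, 28 and 3 reads in the knockout and 18, 46 and 96 in the control libraries. Nr4a1, an immediate early gene that also marks patrolling monocytes, read 173, 579.8 and 59.1 in the knockout and 26.4, 72.8 and 102 in the control libraries, so that 1 knockout library lay within the control range.

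Markers of other cells had the values that follow, and their part in the macrophage values was not tested. Of 12 neutrophil genes 6 were in the table, with a summed level of 16.0 to 25.3 in the knockout and 22.2 to 70.1 in the control libraries. The defining genes Ngp, Camp, Retnlg, Mpo, Elane and Ly6g were not analysed here. The median log2 fold change of these 6 genes was −1.20, close to that of the macrophage genes, with 4 below 0. By limma's unadjusted p of 0.05, 2 were lower and 1 was higher. The 1 higher was Ltf, the lactoferrin gene, with 13, 47 and 29 reads in knockout S595, S598 and S599 and 0, 1 and 3 in control S591, S592 and S594 (limma adjusted p = 0.107). All 9 dendritic cell genes together summed to 31.9 to 42.4 in the knockout and 37.8 to 52.0 in the control libraries. Of 8 B cell genes 5 were analysed here, and they summed to 34.4 to 51.7 in the knockout and 56.8 to 101.5 in the control libraries, every knockout sum below every control sum, with a median log2 fold change of −0.17. Cd72, which macrophages also express, made up much of that sum and stood at a log2 fold change of −1.13. Ccr7, a chemokine receptor gene of migrating dendritic cells, was at −0.88. It had 8, 22 and 9 reads in the knockout and 13, 27 and 49 in the control libraries. T cell genes had a median log2 fold change of 0.93, or −0.35 with S595 as the 1 knockout library, and the costimulatory receptor gene Cd28 was at 0.77. Mast cell genes summed to 53.5 to 93.3 in the knockout and 59.7 to 75.1 in the control libraries. Of the 6 mast cell genes 4 were above 0, with a median log2 fold change of 0.17. The IgE receptor gene Fcer1a, the 1 of smallest p, was at −0.57. It had only 8, 6 and 6 reads in knockout S595, S598 and S599 and 10, 14 and 15 in control S591, S592 and S594.

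Of the wall's own cells, the 10 smooth muscle genes all had log2 fold changes above 0, with the leiomodin gene Lmod1 at 0.67. In limma 5 of these genes were higher at an unadjusted p of 0.05. The median of the 10 was 0.63, or 0.77 with S595 as the 1 knockout library. They summed to 31207, 30858 and 22675 in knockout S595, S598 and S599, and 22493, 18979 and 12974 in control S591, S592 and S594, an order of libraries that is the reverse of that of the macrophage average, except that S595 and S598 change places. The 12 endothelial genes had a median of −0.05, or −0.32 with S595 as the 1 knockout library. Nos3, the endothelial nitric oxide synthase gene, was at −0.86. The 10 fibroblast genes had a median of −0.34, with the lumican gene Lum at −1.44. Adipocyte genes summed to 943 to 1433 in the knockout and 696 to 2919 in the control libraries, with the highest sum in control S591. Of the 8 adipocyte genes 5 were below 0, with a median of −0.16, and the leptin gene Lep, the 1 of smallest p, was at 2.14 with the groups overlapping (1.63 to 3.08 with 1 library left out).

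**Figure D5:**
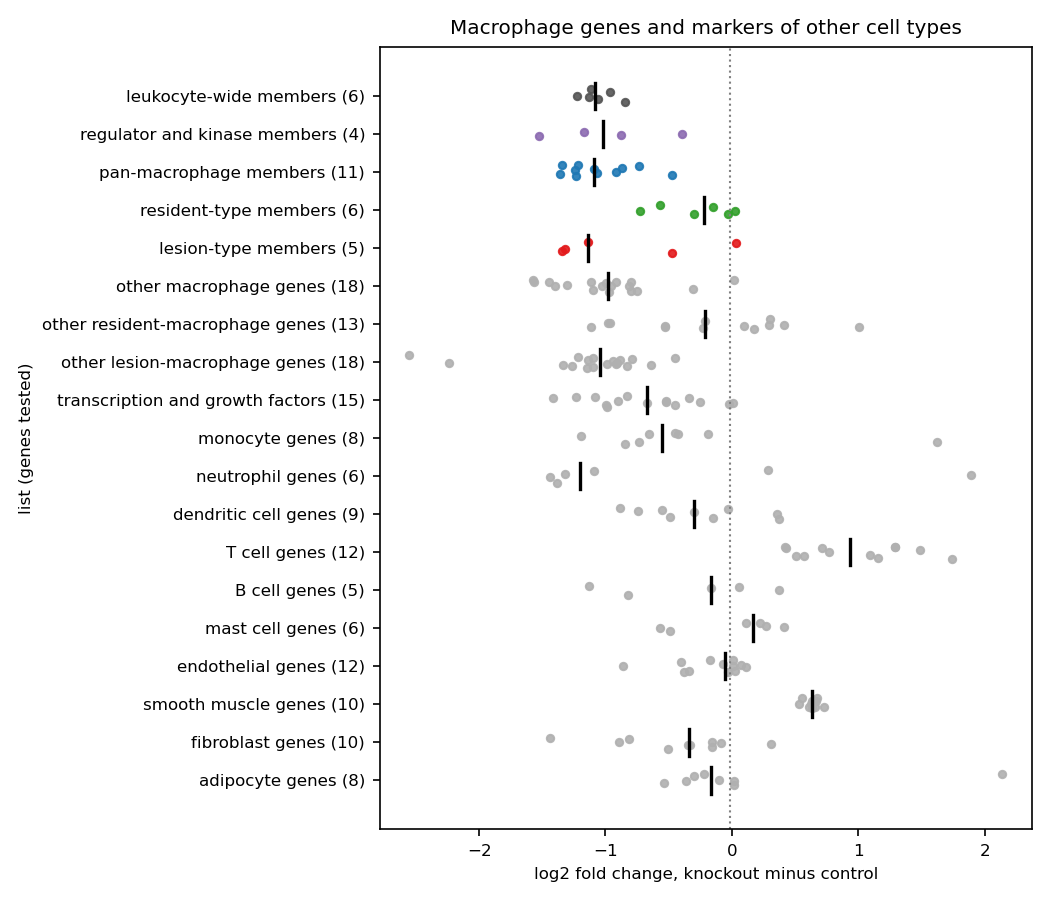
Log2 fold changes, knockout minus control, of the 32 genes by role (coloured) and of other lists (grey), with a black bar at each list's median and the number of genes tested in brackets. The dotted line is the median of all genes. Medians lie at −1.14 to −1.02 for the leukocyte-wide, regulator, pan-macrophage and lesion-type rows, at −0.22 for the resident-type row and at 0.63 for smooth muscle.

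How many of the 32 genes passed over all genes depended on the test and on control S591. The edgeR quasi-likelihood test and limma-voom on the recovered reads each called 0 of the 32, with 24 lower at an unadjusted p of 0.05, beside 12.1% of all genes lower in edgeR. DESeq2 called 20 of the 32 as lower and 0 as higher, beside 4.56% of all genes with an adjusted p that it called lower. Those 20 held all 6 leukocyte-wide genes, Spi1, Fgr, Cd68, Adgre1, Trem2, Gpnmb and Lgals3, and of the resident-type genes Mrc1 alone (DESeq2 adjusted p = 0.0148). Without control S591, limma called 11 of the 32 as lower, beside 3.29% of all genes, and these included Spi1, Adgre1, Ms4a6d and Lgals3. With limma's array weights 19 were called lower, beside 5.06% of all genes. Under each of these tests the resident-type genes Lyve1, Folr2, Cd163, F13a1 and Pf4 and the lesion-type genes Cd9 and Clec7a were not called. The same held for Lst1, Lyn and the pan-macrophage genes Lyz2, Cd84 and Cd86.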

How the data were processed

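PolyA RNA from aortic arches was sequenced after TruSeq preparation, with an RNA integrity of at least 7.9, per the labels' protocols. Groups follow the titles of the samples, and since column names give only genotype and library number, libraries were not paired. Without a role or an order, the submitters' processing notes name Bowtie 0.12.7, RSEM 1.16, cutadapt 1.6.1, CASAVA 1.8, edgeR, limma and build NCBIM37. The signal that the authors deposited is linear and normalised: checked on the values, it equals reads + 0.5 in CPM of a TMM-scaled library size, and whole reads came back for 100% of values at a tolerance of 0.01. Every gene in the table reached at least 1.05 in 3 libraries, so all 32 members passed the filter of 1 in 3 libraries, which removed 0 genes. No label says whether libraries came from separate animals, so p-values measure the spread between these libraries, which may be technical.

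Symbols were matched by Ensembl identifier for 13828 of 14298 genes. Limma 3.58.1 in R 4.3.3 was fitted on log2(value + 1), which understates changes of low genes, with an intensity trend, genotype as the 1 factor and all 6 libraries. P-values are two-sided, and Benjamini-Hochberg adjustment ran over all genes at 0.05. Count tests on recovered reads (edgeR 4.0.16, DESeq2 1.42.0) and limma-voom were alternatives. The fits were tested on simulated data, with limits on recovery that were loosened after a first run missed them. The members, lists and tests were chosen with earlier results of these data known. Named beyond the members were Rbpj, Cdh5, the 3 genes of smallest p in each other macrophage or monocyte list and the 1 of smallest p in lists of other cells, of which 1 result is not reported here. Windows of 50 bases of each member's longest coding transcript (GENCODE M21) were searched in all other transcripts. No protein sequences were used here.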

Additional observations from a re-analysis of the deposited data

How the results depend on the processing

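The median log2 fold change of the 32 genes moved by less than the spread between libraries under every alternative run, as did the resident-type and lesion-type medians, and the counts of genes apart or past an unadjusted p of 0.05 stayed within 1.5 times. The number of genes called over all genes did not: against 3 in limma, it was 900 in DESeq2, 1011 with array weights, 0 in edgeR, in limma-voom, with a mean of at least 5, with a pseudocount of 0.5 and without knockout S598 and S599, 1 with no intensity trend and 10 at an adjusted p of 0.1. With single libraries left out it ran from 0 to 671, with 671 without control S591, and the cause was not tested. Of 608 recomputed member values, 541 kept sign and side of the threshold, 50 (in 20 genes) passed it with the same sign and 17 (in 5 genes) changed sign. When S598 and S599 were left out, S595 was taken to have the spread of the control group, and the values that changed sign were Cd163 at −0.057, Cd9 at −0.047, Clec7a at 0.020 and Lyve1 at 0.014. Array weights turned Cd9 to −0.066 and F13a1 to 0.11, and median centring turned F13a1 to 0.029. With 1 library left out, Cd163 ran from −0.17 to 0.19, Cd9 from −0.053 to 0.18, Clec7a from −0.73 to 0.031, F13a1 from −0.19 to 0.086 and Lyve1 from −0.34 to 0.17, none past the threshold. The lowest member count was 19 reads, for Lst1, where depth limits the precision most. No paired analysis was possible because the columns carry library numbers and not the replicate numbers of the titles. Chosen after seeing the data, the differences from Cd68 with no pseudocount gave the same 8 genes apart. A fit that left out control S591 and knockout S599 together was also run after seeing the data and is not used, because it chose libraries by their macrophage levels.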
